A study of Danio rerio with 6 samples.

Results

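The genes described here belong to the machinery that copies DNA in S phase and separates chromosomes in mitosis, measured in the aged brain of female zebrafish. Members were array targets whose gene symbol begins with one of a fixed set of cell cycle stems, such as mcm, orc, rfc, pol, ccn, cdc, cdk, cenp, plk and kif, with pcna and ube2c added and the cdc42 genes left out. Each target stands for an RNA sequence that at most 3 probes read. The rule found 67 targets of 54 genes among 38489 targets on the array, of which 21264 targets carried a symbol, for 15390 genes. S phase genes made up 28 targets of 22 genes, and mitotic genes made up 20 targets of 14 genes. Another 6 targets of 5 genes were cyclins and kinases that control the G1 phase and their inhibitor. The remaining 13 targets, of 13 genes, were grouped under other roles, such as that of the transcription kinase cdk9, and served as a comparison within the rule. Some of them, cdkn3 included, also act on the cell cycle, so the group is not free of it.

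All fish were females of the AB strain, and each array held RNA from the brain of a single fish at 12 months of age. The lead group of 3 fish had been kept as embryos in lead acetate at 100 ppb from before 2 hours until 72 hours after fertilization. The control group of 3 fish went through the same period at 0 ppb. Both groups then grew up without lead, so the measurement asks what differed in the old brain long after the exposure ended. Males of the same study were not analysed here, and the labels do not say whether fish of a group shared parents or a tank.

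In a dividing cell the origin recognition complex marks where replication begins, the Mcm helicase opens the DNA there, and the sliding clamp Pcna, placed by replication factor C, holds the polymerases on the strand. Cyclins A and B with their kinase then drive entry into mitosis, and the anaphase-promoting complex, which receives ubiquitin through Ube2c and is activated by Cdc20, ends it by marking cyclins for destruction. Most cells of an adult brain no longer divide, but the zebrafish keeps radial glia and other progenitors that divide throughout adult life. In RNA of a whole brain, more dividing cells cannot be told apart from more of these transcripts per cell.

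Signal was set against the 27114 random control probes on each array. Their 95th percentile, taken as background, lay at intensities of 948 to 1312 among the arrays. Of the 67 member targets, 32 lay above it on every array and 28 lay under it on every array. By genes, 11 of 22 in S phase, 4 of 14 in mitosis, 3 of 5 in G1 control and 12 of 13 with other roles lay above background on every array. For a target under background on every array, a difference of log2 values given below describes its signal and is no fold. The random probes themselves had a median 0.05 higher on the log2 scale in lead than in control arrays, and 59.2% of them were higher in lead. The neuron markers snap25a, snap25b, syn2a and stmn2b all lay above background on every array. The arrays of each group were numbered in a separate stretch of positions in the scanned images, so position and group cannot be told apart.

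Most S phase and mitotic genes lay higher in the brains of lead-exposed fish, by a modest amount, and no single gene passed the test. Of the 67 member targets, 53 were higher in lead and 14 were lower, where 50.5% of all targets were higher. The median log2 difference, lead minus control, was 0.14 over the member targets and 0.00 over all targets. In limma's moderated test, 0 members had an adjusted p under 0.05 over all targets, as had 0 of all 38489 targets, and the lowest adjusted p of a member was 0.958. At an unadjusted p under 0.05, 11 members were called, beside 4.41% of all targets. All 11 were higher in lead, against a background of 2.57% of all targets called higher and 1.83% called lower. Of the 11, 4 lay above background on every array, beside 853 of the 1696 called over all targets. Of the 5 mitotic targets among the 11, 0 did. The 3 lead arrays all exceeded the 3 control arrays for 12 member targets, beside 5.74% of all targets. The reverse held for 1 member target, beside 3.75% of all targets. Of the 12 higher without overlap, 7 lay above background on every array, beside 1413 of 2208 over all targets. The count of 11 varied with the fish included. It was 5 without control 1, 4 without control 3, 3 without lead 1 and 6 without lead 2, where 3.72%, 2.79%, 2.76% and 5.34% of all targets were called. It was 13 without control 2 and 12 without lead 3, where 8.05% and 4.47% of all targets were called.

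**Figure D1:**
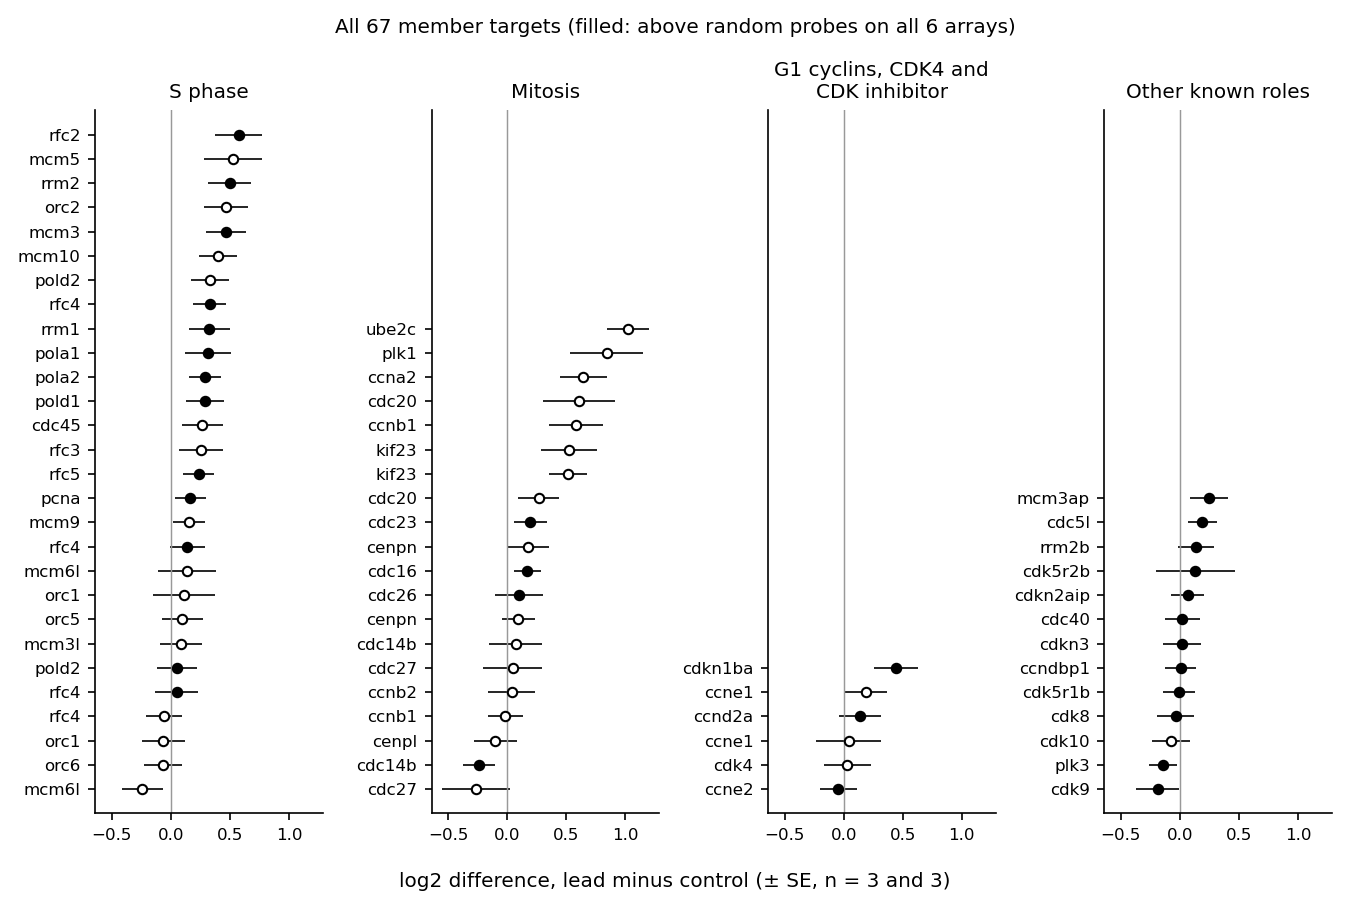
Log2 difference of lead minus control for each of the 67 member targets, with its moderated standard error, in 4 panels by role. Each row is a target and filled points lie above the random probes on all 6 arrays. Of the S phase targets 24 of 28 and of the mitotic targets 16 of 20 lie to the right of 0, and the genes with other roles lie on both sides.

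The classes had different medians, which were not tested against each other. With each gene represented by its brightest target, 20 of 22 S phase genes were higher in lead, with a median log2 difference of 0.26. Among mitotic genes 12 of 14 were higher, with a median of 0.19. Among genes with other roles 8 of 13 were higher, with a median of 0.01, while over all 15390 genes 54.5% were higher and the median was 0.02. For the 11 S phase genes above background on every array, all 11 were higher and the median was 0.29, where 57.2% of all genes so measured were higher. For the 4 such mitotic genes the median was 0.14, and 3 of them were higher.

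The S phase genes were also summarised array by array. The median deviation of the 22 genes from their own mean over the 6 arrays was -0.14, -0.02 and -0.23 in the control brains and 0.13, 0.20 and 0.01 in the lead brains. Every lead brain thus lay above every control brain, with lead 3 and control 2 closest together. The same median for the 14 mitotic genes was -0.13, 0.09 and -0.37 in control and 0.14, 0.21 and 0.04 in lead. Here the groups overlapped, because control 2 lay above lead 3. The 13 genes with other roles gave 0.02, -0.03 and -0.01 in control and -0.06, 0.12 and -0.06 in lead, so both groups were spread around 0.

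**Figure D2:**
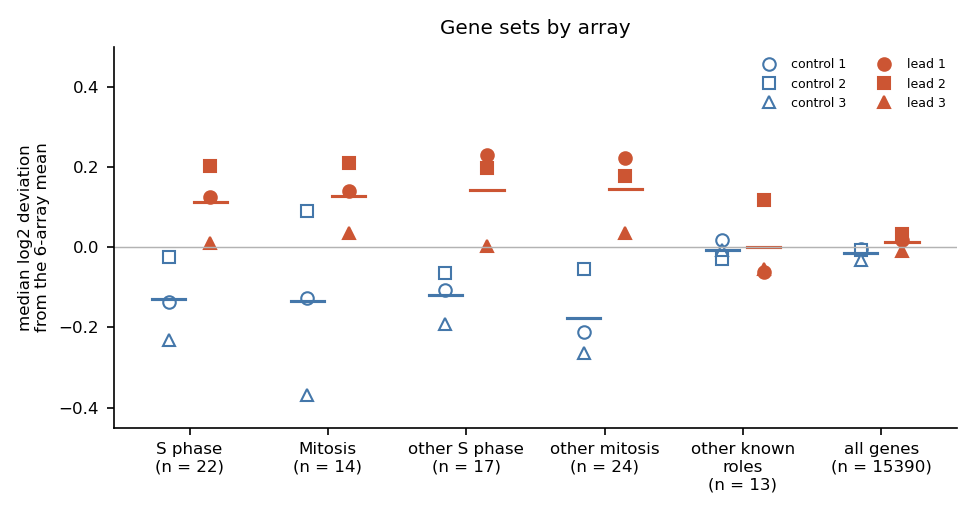
Median over each gene set of the log2 deviation from the 6-array mean, per array, with a short line at the group mean. The sets S phase, Mitosis and other known roles are members, "other S phase" and "other mitosis" are genes of the same pathways outside the naming rule, and the last set is all genes. The lead arrays lie above the control arrays for S phase members, whereas control 2 lies among the lead arrays for mitotic members.

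Single brains stood out within each group. The lowest of the 6 values belonged to control 3 for 13 of 22 S phase genes and for 7 of 14 mitotic genes. The highest value belonged to lead 1 or lead 2 for most of them, with lead 1 highest for 8 S phase and 5 mitotic genes and lead 2 for 7 and 6. Lead 3 was highest for 3 S phase genes and 1 mitotic gene. Without control 3, the count of S phase targets at an unadjusted p under 0.05 was 1 instead of 5, and their median difference over genes was 0.18. It was 2 without control 1, 2 without lead 1, 3 without lead 2, 6 without control 2 and 7 without lead 3. The mitotic count, also 5, was 3 without control 1, control 3 or lead 2, 1 without lead 1, 6 without control 2 and 4 without lead 3. The shares of all targets called with the same arrays left out, given above, ranged from 2.76% to 8.05%.

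**Figure D3:**
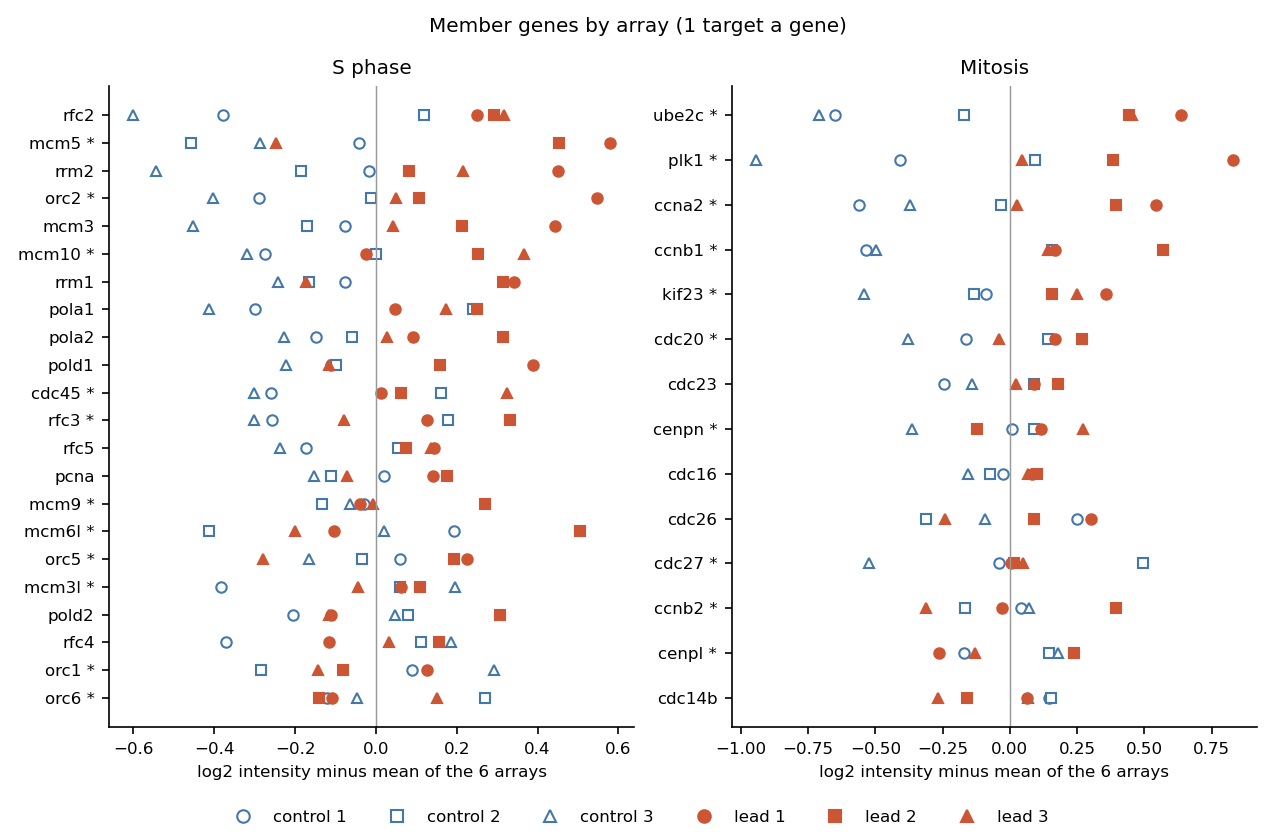
Log2 intensity of each S phase and mitotic gene on each array, as the deviation from its mean over the 6 arrays. Open blue symbols are control brains, filled red symbols are lead brains, and an asterisk marks a gene that is not above the random probes on all arrays. Genes are sorted by their difference, and control 3 forms the left edge for 13 of 22 S phase genes.

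The first step of replication, origin recognition, was divided at the level of targets. Of its 4 genes 2 were higher in lead by their brightest target, and the median log2 difference was 0.01. The clearest separation was that of orc2, a core subunit, with log2 intensities of 9.75, 10.03 and 9.64 in control and 10.59, 10.15 and 10.09 in lead. All lead values exceeded all control values, by a narrow margin for lead 2 and lead 3, although only 1 control and 2 lead arrays lay above background. Its difference was 0.47 ± 0.19 (limma's moderated SE, as for all such values here), with an unadjusted limma p of 0.0397. The other subunits gave differences of -0.07 for orc6, of 0.09 for orc5 and of -0.07 for the brighter of the orc1 targets, and the second orc1 target differed by 0.11. The sign of orc6 and of that orc1 target is not settled, because all 3 probes of each were higher in lead, by 0.21 to 0.41 for orc6 and by 0.10 to 0.12 for orc1. All 3 probes of orc2 and of orc5 were higher too.

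The S phase mcm genes and cdc45, grouped by name with the helicase that unwinds the origin, all lay higher in lead. Not all of them are parts of that helicase, and most were too dim for a fold. Of 7 genes, 7 were higher, with a median difference of 0.27, and 1 was above background on every array. That gene was mcm3, a subunit of the hexameric ring, at 11.75, 11.65 and 11.37 in control and 12.27, 12.04 and 11.86 in lead. The groups did not overlap, and the difference was 0.47 ± 0.17 with an unadjusted limma p of 0.0266, which corresponds to a 1.38-fold level. Its partner in the ring, mcm5, lay under background on every array at 9.43, 9.01 and 9.18 in control and 10.05, 9.92 and 9.22 in lead, with lead 3 inside the control range. The scaffold gene mcm10, which joins the helicase to the polymerase, was likewise under background. It read 8.83, 9.10 and 8.79 in control and 9.08, 9.36 and 9.47 in lead, where lead 1 fell below control 2. Of its 3 probes 2 were higher in lead, with differences from -0.11 to 1.02. Both mcm6l targets were under background, and they pointed in opposite directions. The remaining genes, cdc45, mcm9 and mcm3l, differed by 0.09 to 0.27.

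The clamp and its loader gave 5 of 5 genes higher in lead, with a median difference of 0.24. The gene rfc2, a small subunit of replication factor C (target NM_001013326, at 16757738 to 16764715 on chromosome 21 of Zv7), had log2 intensities of 11.17, 11.66 and 10.94 in control and 11.79, 11.84 and 11.86 in lead. The lead brains lay within a narrow band above a scattered control group, whose brightest member was control 2. The difference was 0.57 ± 0.20, or 1.49-fold, with an unadjusted limma p of 0.0229, and all 3 probes were higher in lead, by 0.53 to 0.72. For pcna, the clamp itself and a common stain for dividing cells, the values were 12.07, 11.94 and 11.90 in control and 12.19, 12.23 and 11.98 in lead. Lead 3 lay below control 1, and the difference of 0.16 ± 0.13 had an unadjusted limma p of 0.256. A second loader subunit, rfc5, was at 12.59, 12.82 and 12.53 in control and 12.91, 12.84 and 12.90 in lead, and its difference of 0.24 ± 0.13 had an unadjusted limma p of 0.115. The groups of rfc5 did not overlap, but control 2 came close to lead 2. The subunit rfc3 differed by 0.25 ± 0.18.

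Replication factor C also showed how targets of a single gene can part. The gene rfc4 has 4 targets that all start at 43454930 on chromosome 11 of Zv7, so they overlap and are not independent. Their differences were 0.05, 0.33, 0.14 and -0.06, and the last of them lay under background on every array. The target ENSDART00000058006 was at 11.84, 11.81 and 12.07 in control and 12.30, 12.33 and 12.09 in lead, without overlap between the groups. The target ENSDART00000062250, the brightest, was at 11.76, 12.25 and 12.32 in control and 12.02, 12.29 and 12.17 in lead, so the lead range lay inside the control range. Which transcripts each of them reads cannot be told from the files.

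The brightest target of each gene of the replicative polymerases, and of the enzyme that makes their building blocks, lay above background on every array. All 4 polymerase genes were higher in lead, with a median difference of 0.29. The values of pola2, an accessory subunit of the polymerase that primes synthesis, ran from 10.92 to 11.09 in control and were 11.24, 11.46 and 11.17 in lead, without overlap. For pold1, the catalytic subunit of polymerase delta, they were 12.19, 12.20 and 12.08 in control and 12.69, 12.46 and 12.18 in lead, so that lead 3 matched the controls. The differences were 0.29 ± 0.13 for pola2 and 0.29 ± 0.16 for pold1, and neither reached an unadjusted p of 0.05. The catalytic subunit pola1 differed by 0.31 ± 0.19, and pold2, a second subunit of polymerase delta, by 0.05 ± 0.17, with a second pold2 target under background at 0.33 ± 0.16. Ribonucleotide reductase turns ribonucleotides into the deoxy form, and its small subunit rrm2 is made mainly in S phase. The rrm2 values were 11.14, 10.97 and 10.61 in control and 11.61, 11.24 and 11.37 in lead. The groups did not overlap, and the difference was 0.50 ± 0.18, or 1.41-fold, with an unadjusted limma p of 0.0291. The large subunit, rrm1, differed by 0.32 ± 0.17. The gene rrm2b, the small subunit that cells outside S phase use and which is counted among the other roles, differed by 0.13 ± 0.15.

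Of the mitotic genes, ube2c had the largest log2 difference among the 67 member targets. It encodes the enzyme that hands ubiquitin to the anaphase-promoting complex (target NM_001037691, at 37744355 to 37753481 on chromosome 6 of Zv7). Its log2 intensities were 10.05, 10.53 and 9.99 in control and 11.34, 11.14 and 11.16 in lead. The groups lay well apart, and 2 control arrays and all 3 lead arrays were above background. The difference was 1.02 ± 0.18, a 2.03-fold level, with an unadjusted limma p of 0.000714 and an adjusted p of 0.958. All 3 probes were higher in lead, by at least 0.69, and with any single array left out the difference stayed between 0.92 and 1.19.

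**Figure D4:**
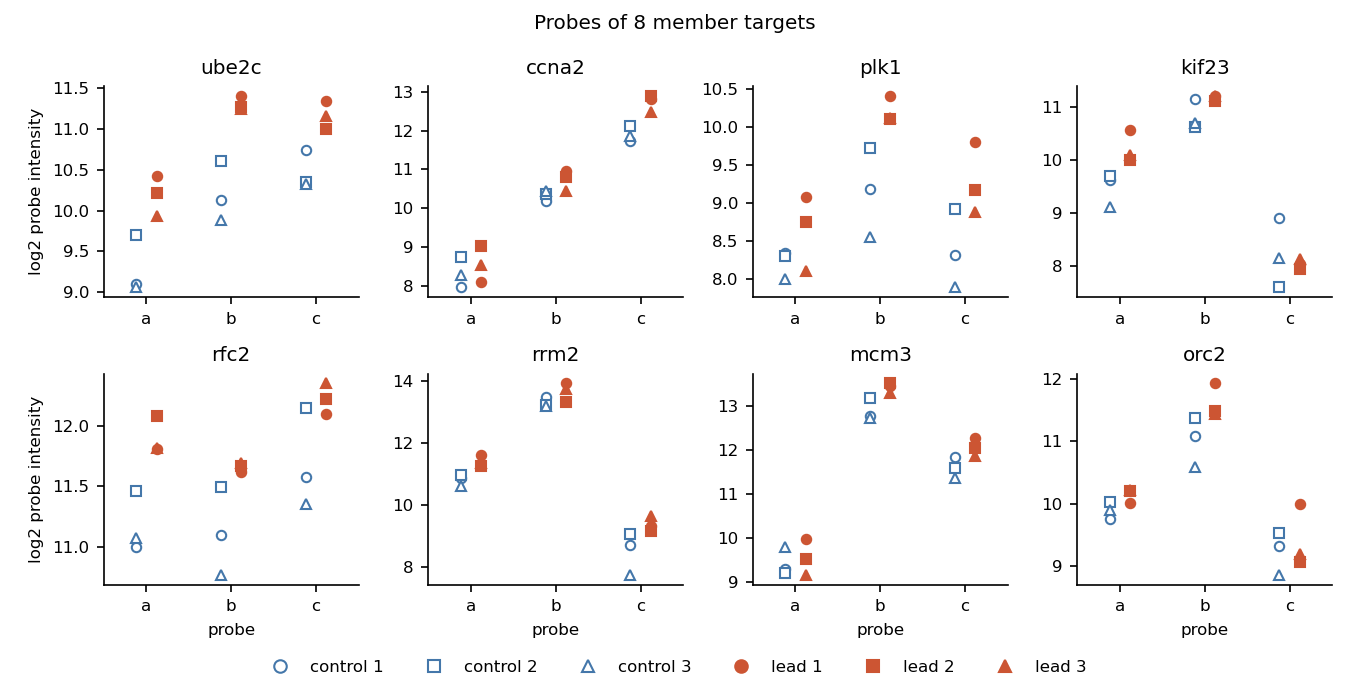
Log2 intensity of the single probes (a, b, c) of 8 member targets on each array, with control brains as open blue and lead brains as filled red symbols. For ube2c all 3 probes lie higher in lead, whereas 1 kif23 probe is lower in lead and 1 mcm3 probe overlaps between the groups.

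Cyclin A2, which acts in S phase and at the start of mitosis, followed the same direction. The ccna2 target, NM_152949 on the unplaced scaffold Zv7_NA3185 from 2157 to 6500, read 9.85, 10.38 and 10.04 in control and 10.95, 10.80 and 10.43 in lead. The groups did not overlap, but lead 3 and control 2 lay close, and 1 control array was above background against 3 lead arrays. The difference was 0.64 ± 0.20, with an unadjusted limma p of 0.0147. Of the B cyclins, which drive mitosis itself, the brighter ccnb1 target lay under background throughout, at 8.38, 9.07 and 8.41 in control and 9.08, 9.48 and 9.06 in lead. Control 2 there exceeded lead 3 slightly, the dimmer ccnb1 target differed by -0.02, and ccnb2 differed by 0.04 ± 0.20.

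The mitotic kinase and the kinesin of the rule were both under background on every array, which leaves their values without a fold. For plk1, a kinase needed for spindle assembly, the values were 8.42, 8.92 and 7.89 in control and 9.66, 9.22 and 8.88 in lead, with lead 3 below control 2. For kif23, a motor of the midzone where daughter cells part, the brighter target read 9.75, 9.71 and 9.30 in control and 10.20, 10.00 and 10.09 in lead, without overlap. Of its 3 probes 2 were higher in lead and 1 was lower, as the plot of single probes shows.

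The anaphase-promoting complex itself has subunits that also act in cells that no longer divide. Including ube2c, 6 of 6 of its genes were higher, with a median difference of 0.18. The subunit cdc16 was at 12.03, 11.98 and 11.90 in control and 12.14, 12.16 and 12.13 in lead, a separation without overlap but of only 0.17 ± 0.12. The subunit cdc23 was at 12.32, 12.65 and 12.42 in control and 12.65, 12.74 and 12.58 in lead, where control 2 lay inside the lead range. The activator cdc20, under background on every array, had both targets higher on average in lead. The subunit cdc26 differed by 0.10 ± 0.21, and the targets of cdc27, both under background, by 0.04 and -0.26. Of the kinetochore genes, cenpl differed by -0.10 ± 0.18 and cenpn by 0.18 ± 0.18, also under background.

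The member whose lead arrays all lay below its control arrays was a phosphatase. The target ENSDART00000097943, filed as cdc14a and listed by RefSeq as a synonym of cdc14b, read 13.02, 13.02 and 12.94 in control and 12.94, 12.71 and 12.60 in lead. Lead 1 fell just under control 3, and all 3 probes were lower in lead. The difference was -0.24 ± 0.14, with an unadjusted limma p of 0.117. In yeast the Cdc14 phosphatase drives exit from mitosis, and a second cdc14b target at the same locus lay under background and differed by 0.07 ± 0.22.

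Of the genes that gate entry into S phase, 4 of 5 were higher, with a median of 0.04, as were 5 of 6 targets. The inhibitor cdkn1ba, a homologue of mammalian p27 filed as cdkn1bl, was at 11.51, 11.81 and 11.29 in control and 12.02, 12.17 and 11.75 in lead. Control 2 lay above lead 3, and the difference was 0.44 ± 0.19, or 1.36-fold, with an unadjusted limma p of 0.049. Its direction, higher in lead, was thus the same as that of most S phase genes. Cyclin D2, ccnd2a, which opens the way out of G1, differed by 0.14 ± 0.18, and ccne2 by -0.05 ± 0.16. Targets beside ccnd2a on chromosome 25 that carry only the homologue name CCND2 gave -0.09, -0.15 and 0.02. All of these lay above background on every array. The kinase cdk4 differed by 0.03 ± 0.20 and ccne1 by 0.04 ± 0.27, both from targets under background on every array.

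Genes grouped under other roles were mostly bright and differed little. The elongation kinase cdk9 gave -0.19 ± 0.18, the stress kinase plk3 gave -0.14 ± 0.12, and cdk5r1b, an activator of the neuronal kinase Cdk5, gave -0.01 ± 0.14. On the other side, the splicing factor cdc5l gave 0.19 ± 0.12 and mcm3ap, which works in mRNA export, gave 0.25 ± 0.16. The genes ccndbp1, cdc40, cdk5r2b, cdk8, cdk10, cdkn2aip and cdkn3 lay between -0.08 and 0.13. None of the 13 had an unadjusted p under 0.05, beside 4.41% of all targets. None had groups apart, beside 5.74% of all targets higher and 3.75% lower without overlap, so few would be found at those shares. Of the 13, 12 were above background on every array.

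The single probes behind the targets were counted too. Of 201 member probes 153 were higher in lead, 76.1%, where 50% of all 113549 probes were. This held for 72 of 84 S phase probes, 45 of 60 mitotic probes and 14 of 18 probes of G1 genes, and for 22 of 39 probes of genes with other roles. Probes of a target read the same RNA and are not replicates. In limma's test 25 member probes had an unadjusted p under 0.05 in either direction, beside 4.28% of all probes, and 0 had an adjusted p under 0.05.

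Other genes of these pathways, from a list that the naming rule does not cover, mostly lay in the same direction where measured. The list was chosen with earlier results of these data known, so it is not independent of them. Of 34 listed genes with S phase roles 17 were on the array with a symbol, and 15 of them were higher in lead, with a median of 0.31. For the 6 above background on every array 5 were higher and the median was 0.24. The remodeler hells, which keeps newly copied DNA methylated, was at 10.65, 11.23 and 10.73 in control and 11.61, 11.93 and 11.48 in lead. Every lead brain exceeded every control brain by a clear margin, and the difference was 0.80 ± 0.20. The replisome gene wdhd1 differed by 0.54 ± 0.22 and uhrf1, which reads half-methylated DNA, by 0.41 ± 0.15. Thymidine kinase, tk1, was under background on every control array and above it on 1 lead array. Of these 17 genes 5 had an unadjusted limma p under 0.05, all 5 higher, against 2.92% of all genes.

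Of 49 listed mitotic genes 24 were on the array with a symbol, and 23 of these were higher, with a median of 0.32. An unadjusted limma p under 0.05 was found for 8 of the 24, all higher, against 2.92% of all genes called higher. Under background on every array lay 10 of the 24, and 8 lay above it on every array. Of the latter 7 were higher, the median was 0.16, and 1 had an unadjusted limma p under 0.05. The proliferation gene cdca7a, on this list though not specific to mitosis, lay above background on 1 control and 3 lead arrays. It read 9.83, 10.01 and 10.13 in control and 10.68, 10.96 and 10.19 in lead, with lead 3 barely above control 3. The kinetochore gene spc24 and the condensin gene ncaph lay under background on every array, and foxm1, which activates mitotic genes, lay above it on 1 lead array alone. The exception was zw10, a gene of the spindle checkpoint, at -0.15 ± 0.15. Of 30 listed regulators of G1 and checkpoints 14 were on the array with a symbol, and 12 of these were higher, with a median of 0.19. For the 7 above background on every array 6 were higher and the median was 0.08. The transcription factor mycn, active in neural progenitors, was at 10.13, 10.28 and 9.89 in control and 10.68, 11.14 and 10.70 in lead, without overlap and with a difference of 0.74 ± 0.18. The E2F genes e2f5 and e2f7, which control S phase genes, lay under background on every array. The gene lin54, a part of the complex that governs cell cycle promoters, differed by 0.27 ± 0.18.

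A further 109 targets had no zebrafish symbol and matched the stems only through a homologue's name, so they were kept apart from the members. Of 24 such S phase targets 22 were higher in lead, with a median of 0.16, and of 46 mitotic ones 35 were higher, with a median of 0.18. Of 6 with G1 control roles 4 were higher, with a median of 0.015, and the median of the 4 above background on every array was -0.034. Of 21 with other roles 10 were higher and the median was -0.0042. An unadjusted limma p under 0.05 was found for 3 S phase and 14 mitotic targets, all higher, against 2.57% of all targets called higher. Of those called, only 1 S phase and 3 mitotic targets lay above background on every array, beside 853 of the 1696 called over all targets. Under background on every array lay 5 of the 24 S phase and 21 of the 46 mitotic targets. Some homologue-named targets read the same locus as a member or as each other, so they are not all independent. The CCNA2 target on scaffold Zv7_NA3185 from 2157 to 6535 is an example. That CCNA2 target was at 9.99, 10.22 and 10.10 in control and 10.71, 10.80 and 10.42 in lead, without overlap. A target named MCM4, on scaffold Zv7_NA156 from 23388 to 27411, overlaps the mcm5 member target, which runs from 23388 to 27319. It lay above background on 1 control and 2 lead arrays and differed by 0.33 ± 0.17. Which of the 2 genes it reads is not settled.

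**Figure D5:**
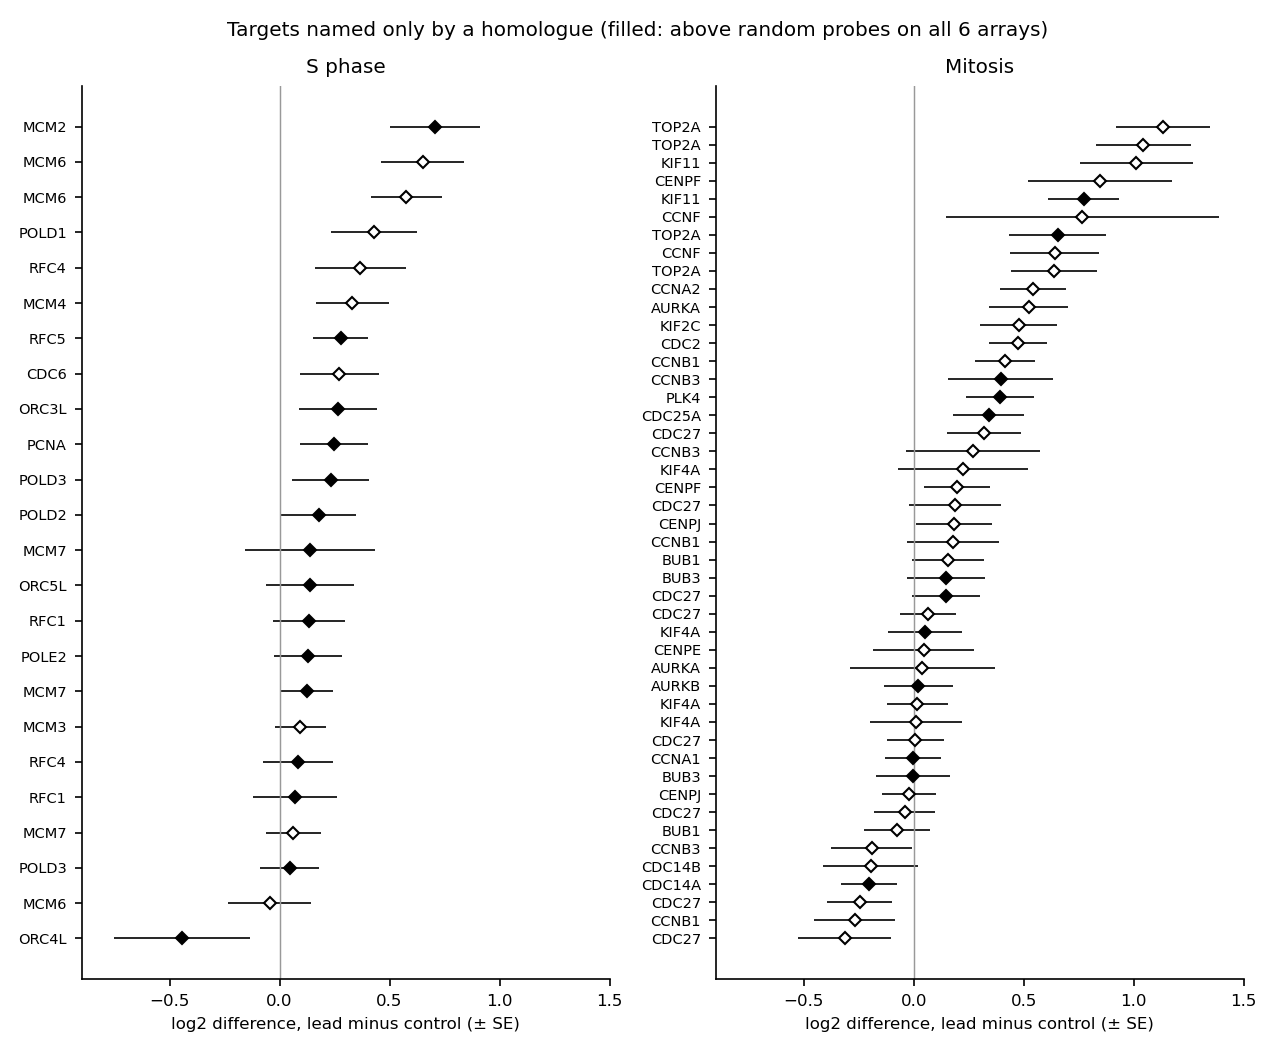
Log2 difference of lead minus control, with its moderated standard error, for targets that carry only a homologue's name. Each row is a target, several rows can be targets of the same gene, and filled points lie above the random probes on all 6 arrays. Targets named TOP2A and KIF11 lie farthest to the right among mitotic ones, and MCM2 and MCM6 among S phase ones.

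The 2 targets whose name joins CDKN3 with CNIH differed by 1.30 ± 0.40 and 0.99 ± 0.39, and which gene they read is not settled. Among targets named for a single gene, those with the smallest p included genes of chromosome structure and the spindle. The target BM156751, named for TOP2A, the topoisomerase that untangles sister chromosomes, read 9.41, 10.03 and 9.40 in control and 10.97, 10.69 and 10.59 in lead. It lay above background on 1 control and 3 lead arrays, and the difference was 1.13 ± 0.21. A second TOP2A target, TC242705, was under background on every control array and above it on 2 lead arrays. Its bound, the lead mean over control background, was 1.06-fold. That mean includes lead 3, which at 9.86 lay under its own background, so the bound is not firm. The other TOP2A targets, TC249242 and ZV700S00005606, differed less, by 0.65 ± 0.22 and 0.64 ± 0.20. The former lay above background on every array, and the latter on 2 control and 3 lead arrays. The target ZV700S00001822, named for KIF11, the motor that pushes spindle poles apart, read 10.07, 10.36 and 10.30 in control and 11.18, 11.09 and 10.77 in lead. It was above background on every array, and the difference was 0.77 ± 0.16. For the helicase subunit MCM2 the target BC048026.1 read 11.55, 11.29 and 11.25 in control and 12.21, 12.33 and 11.66 in lead, a difference of 0.71 ± 0.21. For these TOP2A, KIF11 and MCM2 targets the lead brains all lay above the control brains, and for MCM2 lead 3 came nearest to the controls. A second KIF11 target, TC248156, spans the same part of chromosome 17 and lay under background. For MCM6 the target ZV700S00004774 differed by 0.58 ± 0.16, with 2 control and 3 lead arrays above background. The MCM6 target TC258949, which overlaps it, differed by 0.65 ± 0.19. At another locus the MCM6 target TC261440 differed by -0.045 ± 0.19 and lay under background on every array. The target of CDC2, the kinase that cyclin B activates, was under background on every array.

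The authors' deposited table of altered targets lists 94 targets and holds 2 members. In the authors' deposited table ube2c has a fold of 2.03 with a p of 0.00492 and ccna2 a fold of 1.563 with a p of 0.0418. It also lists 4 homologue-named targets, for CCNF, KIF11, MCM2 and TOP2A. The TOP2A target listed there is ZV700S00005606, with a fold of 1.555. The test behind the authors' deposited table and any adjustment of its p-values are not stated in it.

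Other tissues in the dissected brains varied beside these genes. Red cell markers lay lower in lead for 11 of 11 measured genes, with a median difference of -0.92. Their median deviation was 0.75, 0.36 and 0.43 in control and 0.22, -0.98 and -0.63 in lead. Pituitary markers were lower in lead for 8 of 9 genes, with a median difference of -0.96. Their median deviation stood at 2.15 in control 1 and between -0.72 and 0.02 elsewhere. Cilia markers of the ependyma were higher in lead for 6 of 6 genes, with a median difference of 0.56. Their median deviation stood at 1.16 in lead 1 and between -0.67 and 0.32 elsewhere. Markers of radial glia and progenitors were higher in lead for 8 of 9 genes, with a median of 0.17 and deviations of 0.01, 0.06 and -0.30 in control and 0.10, -0.17 and 0.09 in lead. Markers of new neurons were higher for 7 of 8 genes, with a median of 0.08, and the deviations were -0.21, 0.00 and -0.06 in control and 0.04, 0.22 and 0.01 in lead. Microglial markers were higher for 2 of 5 genes and oligodendrocyte markers for 2 of 5. Vessel and meninges markers were higher for 1 of 6 genes, with a median of -0.12. The 4 measured germ line markers were under background on every array. The part of any of these in the difference of the replication and mitosis genes was not tested.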

How the data were processed

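Target intensities, on a linear scale, were made by the authors with RMA, per the submitters' processing notes, whose version and joint normalization are not given in the sources used here. A score for the standard error stands beside it, per the file headers, and was not used. The authors also deposited normalized probe intensities and, per the file headers, a list of altered targets that gives each a p-value, a log2 ratio and a signed fold score. The log2 of target intensities was used without filter or added constant, and control features were dropped. Of 3055 RefSeq targets 2663 were named through RefSeq (GRCz12tu, names only). Coordinates are those of the files, on Zv7 by their scaffold names, except for OTTDART targets, whose assembly is not given and whose coordinates are not printed. Lead was compared with control, 3 arrays each, with limma 3.58.1 in R 4.3.3 (lmFit and eBayes, two-sided) over 38489 targets, with Benjamini-Hochberg adjustment and a threshold of 0.05. A gene was represented by its target with the highest mean. Standard errors are those of the moderated test, which draws on the variance of all targets. They are therefore not the scatter of a target's own 3 and 3 arrays alone. Precision is limited by the number of arrays. Background was the 95th percentile of each array's random probes. Where a target lay under background on every control array, a bound set the lead mean against the mean of that percentile over the control arrays. Genes were named by class: the 6 with the smallest p, the 4 with the highest mean, any with an unadjusted p under 0.05, and the 4 with the smallest p in each pathway list. The named homologue targets are among the smallest p, and other genes named were chosen after their values were seen. Members and lists were chosen with earlier results of these data known. Alternatives covered scaling, normalization, dim targets, target summary, moderation, array weights and single arrays left out. Plots used matplotlib 3.10.9, and tables pandas 2.3.3 under Python 3.11.15.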

Additional observations from a re-analysis of the deposited data

How the results depend on the processing

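Of 30 named targets 23 kept their sign under every alternative, and none had an adjusted p under 0.05 under any, the lowest being 0.26. The S phase and mitotic medians kept their sign throughout. With single arrays left out, the S phase median ranged from 0.18 to 0.32, the mitotic median from 0.14 to 0.30, the G1 median from -0.033 to 0.17 and that of other roles from -0.023 to 0.048. Targets with an unadjusted p under 0.05 then ranged from 1 to 7 in S phase, from 1 to 6 in mitosis, from 0 to 1 in G1, from 3 to 13 over all members and from 1063 to 3098 over all targets. Targets higher without overlap ranged from 7 to 14 in S phase, from 5 to 11 in mitosis, from 0 to 1 in G1, from 0 to 2 in other roles, from 14 to 26 over all members and from 3236 to 5556 over all targets, and targets lower without overlap from 1 to 3 and from 2552 to 4139. Over all targets, the share called ranged from 2.76% to 8.05%, higher without overlap from 8.41% to 14.4% and lower from 6.63% to 10.8%. Fewer arrays make such separation easier by construction.

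Correlations of same-numbered deviations were 0.31, 0.03 and -0.05, and those of differently numbered arrays ran from -0.23 to 0.24. With so few arrays these do not settle whether the replicate numbers pair them. The replicate block gave 3 S phase targets with an unadjusted p under 0.05, 7 mitotic ones and 11 members in all. Of all targets 5.29% were called there. Without moderation, S phase had 3 targets with an unadjusted p under 0.05, G1 had 0 and all members 7. With an intensity trend S phase had 3 and G1 had 0. Under either setting 4.30% of all targets were called. With dim targets left out, only 6 of the 20 mitotic targets remained. Of these 6, 2 had an unadjusted p under 0.05 and 3 were higher without overlap. Of the 16 S phase targets that remained, 5 had an unadjusted p under 0.05 and 7 were higher without overlap. Of all targets, from a shorter table, 4.79% were called and 6.49% were higher without overlap, and 864, or 3.49%, were lower. From the median of probes, mitosis had 3 targets higher without overlap and G1 had 0 targets with an unadjusted p under 0.05. There 2 members were lower without overlap, and the median of other roles was -0.013. Of all targets so summarised 4.30% were called, 5.41% were higher without overlap and 3.70% were lower. Quantile normalization gave 2 members lower without overlap, beside 3.42% of all targets, and 1 target of other roles higher without overlap, beside 6.22%. Median centring also gave 1 target of other roles higher without overlap, beside 6.72% of all targets. Array weights, chosen after seeing the data, gave 0 G1 targets with an unadjusted p under 0.05, beside 5.04% of all targets. With these weights the G1 median was -0.017 and the median of other roles was -0.0044. At the 99th percentile of random probes 22 member targets were above background on every array instead of 32.

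Some signs changed, and the cause was not tested. Under array weights ccne1 gave -0.017, cdk4 -0.027 and the brightest rfc4 target -0.0096. From the median of probes ccne2 gave 0.15, cdk4 -0.17, cdk10 0.18 and mcm3ap -0.061. Median centring gave 0.0054 for cdk5r1b. With single arrays left out, ccne1 ranged from -0.24 to 0.21, ccne2 from -0.15 to 0.065, cdk4 from -0.12 to 0.18, cdk10 from -0.19 to 0.025, cdk5r1b from -0.090 to 0.042 and that rfc4 target from -0.12 to 0.15. The planned search of promoters for motifs was not run. Adding homologue-named targets, also chosen after seeing the data, gave medians of 0.24 in S phase and 0.18 in mitosis.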

Other observations

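Zebrafish gene names have been revised since the array was designed, and 28 further targets match the stems only under the current RefSeq name of the gene. The kinase cdc7, which fires replication origins, had 3 such targets with log2 differences of 0.48, 0.35 and 0.18. In limma's test the first of these had an unadjusted p of 0.0281, but it lay under background on every array, as did the last. For pole3, an accessory subunit of polymerase epsilon, the difference was 0.42 ± 0.14. For kif20a, a motor of the late spindle, it was 0.36 ± 0.18, with 1 lead array alone above background. The other mitotic genes among these targets did not share that size of difference. The gene cdc14ab, above background on every array, gave -0.14 ± 0.14. Under background on every array, cenpp gave 0.17, cdc14aa -0.03 and the cenpl targets -0.04 and 0.01. The targets of pole4, another epsilon subunit, pointed in opposite directions, at -0.33 and 0.20. Genes of G1 control lay lower in lead or near 0. Both cdk6 targets were lower in lead, by differences of -0.23 and -0.14, and ccnd2b gave -0.29 ± 0.19. The damage-induced inhibitor cdkn1a gave 0.06 and 0.07, from targets under background on every array. The topoisomerase top2b, which acts in neurons that no longer divide, gave 0.04 ± 0.12. Homologue-named targets whose name joins several genes numbered 12, and another 5 with the suffix _R were left out.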
